A study of Mus musculus with 18 samples.

Results

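The genes described here are 9 secreted cytokines and chemokines of fibroblasts: Il6, Lif, Csf1, Gdf15, Cxcl1, Cxcl5, Cxcl12, Ccl2 and Ccl7. They were taken by symbol from a table of 51912 genes, and each symbol matched 1 Ensembl identifier. RNA-seq was carried out on mouse embryonic fibroblasts (MEFs), connective tissue cells grown out of embryos, from the C57BL/6 background at passage 1 in 5% oxygen and 15% serum. The embryos were wild type (wt, +/+) or null (-/-) for Pole4, which encodes an accessory subunit of DNA polymerase epsilon, and wt, heterozygous (het, +/-) or null for Trp53, which encodes the tumour suppressor TRP53. Each of the 6 genotypes had 3 libraries, 18 in all, none of them treated with a drug or cytokine. The alleles were lost in every cell of the embryo, so no single tissue was targeted, and all cultures came from crosses of double heterozygous parents. Nothing states that the libraries of a genotype came from separate embryos. Male and female libraries were both present in each Pole4-/- genotype, so these came from more than 1 embryo each, whereas in the Pole4+/+ genotypes the spread between libraries may be technical. The model of all 18 libraries estimates 1 spread per gene over the 6 genotypes, so its p-values in either background draw on both.

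Cytokines and chemokines are small secreted proteins that fibroblasts use to call and instruct other cells. IL-6 and LIF signal through receptors that share the gp130 chain (Il6st) and activate JAK kinases and STAT3, CSF1 keeps macrophages alive, and GDF15 is a stress hormone of the TGF-beta family. The CXC chemokines CXCL1 and CXCL5 attract neutrophils, CXCL12 holds blood stem cells and lymphocytes in their niches, and the CC chemokines CCL2 and CCL7 attract monocytes. Many of these genes are targets of NF-kB and are released by senescent fibroblasts, whereas Gdf15 and Lif are known TRP53 target genes.

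The upstream DNA of 5 of the 9 genes is shown: Gdf15, Lif and Cxcl12, which fell with loss of Trp53, and for comparison Il6 and Cxcl1, which edgeR did not call. None is shown for Csf1, Ccl2, Ccl7 or Cxcl5. Each line gives the 250 bases before the annotated transcription start, 5′ to 3′ on the strand of the gene, from RefSeq on GRCm38.p6. Capitals mark matches, on either strand, to the AP-1 site TGANTCA, the C/EBP site TTNNGCAAT, the GC box GGGCGG, the kappa B motif and the TRP53 half-site.
Gdf15, chr8:70632457-70632706, minus strand: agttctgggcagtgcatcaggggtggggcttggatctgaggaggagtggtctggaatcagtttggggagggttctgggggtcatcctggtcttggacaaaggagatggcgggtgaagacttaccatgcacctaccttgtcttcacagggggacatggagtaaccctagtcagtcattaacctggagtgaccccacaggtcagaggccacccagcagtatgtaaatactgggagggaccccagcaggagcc
Lif, chr11:4257318-4257567, plus strand: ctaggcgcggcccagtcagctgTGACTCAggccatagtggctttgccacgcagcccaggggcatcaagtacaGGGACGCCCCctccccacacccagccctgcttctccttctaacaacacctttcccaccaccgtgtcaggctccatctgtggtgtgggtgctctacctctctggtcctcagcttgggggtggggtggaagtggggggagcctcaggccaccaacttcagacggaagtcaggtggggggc
Cxcl12, chr6:117168285-117168534, plus strand: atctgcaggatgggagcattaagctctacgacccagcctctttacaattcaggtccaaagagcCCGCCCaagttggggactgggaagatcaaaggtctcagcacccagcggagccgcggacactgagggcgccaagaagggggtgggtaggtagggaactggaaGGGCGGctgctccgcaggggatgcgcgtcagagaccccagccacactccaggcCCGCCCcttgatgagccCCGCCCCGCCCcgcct
Il6, chr5:30012864-30013113, plus strand: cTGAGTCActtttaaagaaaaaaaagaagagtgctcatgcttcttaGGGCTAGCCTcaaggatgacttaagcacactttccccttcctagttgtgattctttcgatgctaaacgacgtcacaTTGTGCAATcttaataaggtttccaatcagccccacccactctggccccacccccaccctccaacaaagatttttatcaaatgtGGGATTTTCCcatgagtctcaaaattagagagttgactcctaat
Cxcl1, chr5:90890995-90891244, plus strand: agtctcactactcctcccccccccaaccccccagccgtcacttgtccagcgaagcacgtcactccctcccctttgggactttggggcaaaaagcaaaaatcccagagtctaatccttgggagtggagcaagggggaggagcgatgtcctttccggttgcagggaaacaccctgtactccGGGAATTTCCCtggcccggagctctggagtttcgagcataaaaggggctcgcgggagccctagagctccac

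Il6 held an AP-1 match, which reads the same on both strands, at -249, a TRP53 half-site at -204, a C/EBP match at -128 and a kappa B match at -44, counted from the first base before the start as -1. Cxcl1 held a kappa B match at -71 that overlaps a match on the other strand at -70. Lif held an AP-1 match at -228 and a kappa B match at -178. Cxcl12 held 5 GC boxes, of which the pair nearest the start overlap by a base, and Gdf15 held none of the motifs searched in this window or in a second window from another annotated start, not shown. The window of Csf1, which is not shown, held GC boxes at -51 and -41 and a kappa B match at -154. Among 32851 promoter windows of the same length in RefSeq, 32.7% held a GC box, 7.25% a kappa B match, 7.13% a TRP53 half-site, 6.75% an AP-1 match and 1.93% a C/EBP match. TATAAA (12.4% of windows), the CRE TGACGTCA (1.55%), the ATF4 element TGATGNAA (3.45%) and a full TRP53 site (0.0639%) matched in none of the windows of these 6 genes. A match is a description of the letters only.

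Libraries held between 9535971 and 35319918 counts, and ribosomal RNA took from 0.968% to 42.5% of them. Levels are given in CPM, counts scaled to a common library size, after TMM correction for composition. With Pole4 wt, Trp53 RNA was at 90.8 ± 4.81 CPM (SD, n = 3) in the Trp53 wt group against 10.7 ± 1.83 in the null group, and its target Cdkn1a at 242 ± 9.88 against 9.83 ± 3.61. Pole4 RNA fell by 0.95 on the log2 scale in the Pole4 null groups (SE 0.11, edgeR adjusted p = 0.00126) but was still present, at 10.3 ± 0.986 CPM against 20.0 ± 3.41 where Trp53 was wt. All 12 fibroblast markers passed the filter on low counts, Col1a1 ranged from 3892 to 9447 CPM, and Pdgfra from 14.02 to 254, highest in library 1 of Pole4+/+ Trp53-/-. The leukocyte gene Ptprc reached at most 2.22 CPM, the macrophage gene Csf1r 8.89, the endothelial gene Pecam1 0.566 and the epithelial gene Epcam 0.243, while the sums of 14 macrophage and 10 epithelial markers reached 75.1 and 42.6 CPM. Sex, read from Xist and Y-linked genes, was female in all Pole4+/+ Trp53+/+ and Pole4+/+ Trp53-/- libraries, male in all Pole4+/+ Trp53+/- libraries and mixed elsewhere. Library 1 of Pole4+/+ Trp53-/- stood apart: its mean correlation with the other libraries of its genotype, 0.948, was the lowest of the 18, and its Y-linked genes were at 9.08 CPM beside abundant Xist, against at most 0.337 in the other female libraries. Called results are given with and without it where it changed them.

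All 9 genes were among the 15710 that passed the filter on low counts, 8 of them above its limit in all 18 libraries and Gdf15 in 15. The libraries with Gdf15 under the limit were all Trp53-/-: it was above in 2 of 3 with Pole4 wt and in 1 of 3 with Pole4 null. Scaled also to length, as CPM per kb of annotated exon, Cxcl12 and Csf1 were the most abundant, with medians over the 18 libraries of 43.0 and 36.8. Ccl7 and Ccl2 followed at 19.0 and 16.6 CPM per kb. Lif and Cxcl5 were at 2.12 and 2.09 CPM per kb, and Gdf15, Il6 and Cxcl1 at 0.896, 0.885 and 0.802. The ranges of neighbours in this order overlapped, except that the lowest library for Ccl2, at 7.70 CPM per kb, lay above the highest for Lif, at 3.77. Across libraries, Gdf15 varied most, from 0.199 to 4.34 CPM (21.8-fold), and Csf1 least, from 121 to 281 CPM (2.32-fold).

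**Figure D1:**
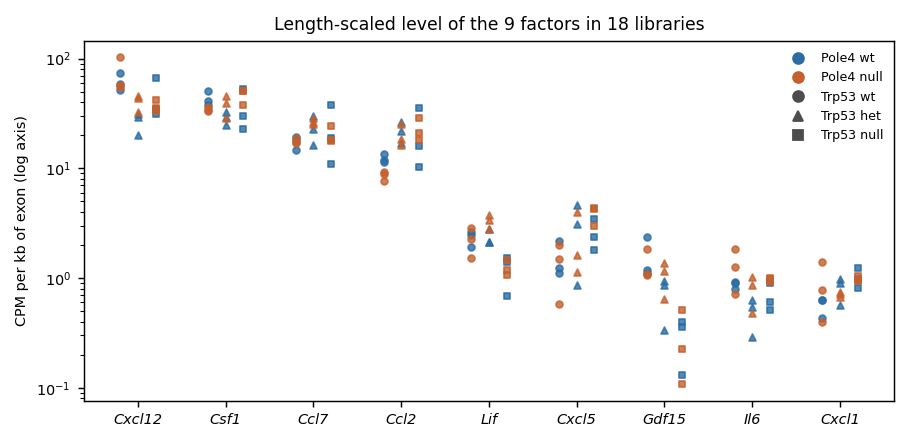
Level of each gene in CPM per kb of exon (y axis, log scale) in 18 libraries, ordered by the median; colour gives the Pole4 genotype and shape the Trp53 genotype. Cxcl12, Csf1, Ccl7 and Ccl2 lie above the other 5 genes, and the lowest point is a Trp53-/- library of Gdf15.

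The main comparison asks which of these genes change when both copies of Trp53 are lost. In Pole4-/- MEFs, 5 of the 9 genes were called at an adjusted p under 0.05 by edgeR's quasi-likelihood test: Gdf15, Cxcl12 and Lif fell, and Ccl2 and Cxcl5 rose. Of all 15710 genes tested in that comparison, 42.6% were called, 20.8% lower and 21.8% higher, so 5 of 9 is close to the background. In Pole4+/+ MEFs, 1 of the 9 genes was called, Gdf15, which fell, against 4.6% of all genes called and 2.37% called lower. Without library 1 of Pole4+/+ Trp53-/-, edgeR called 3 of the 9 there (Gdf15 and Cxcl12 lower, Ccl2 higher), and the calls over all genes rose from 723 to 2700 (16.9% of 15953 tested in that fit). On average over Pole4, 4 of the 9 were then called, without Cxcl5, against 48.2% of all genes. Averaged over both Pole4 backgrounds, the same 5 genes were called in the same directions, with a background of 37.4% called, 17.1% lower and 20.3% higher. Null and wt libraries did not overlap for 6 of the 9 genes in Pole4-/- (57% of all genes) and for 3 in Pole4+/+ cells (16.5% of all genes). The 9 genes did not move one way: the median log2 fold change was 0.14 in Pole4-/-, -0.28 in Pole4+/+ and 0.07 averaged, against -0.02, 0.03 and 0.00 over all genes tested. RNA was taken from whole cultures, so fewer expressing cells and less RNA per cell cannot be told apart in any of these changes. Markers of cell types moved in the Pole4-/- comparison as well: the sum of 12 fibroblast markers ranged from 22935 to 29342 CPM in the Trp53+/+ libraries and from 12064 to 14864 in the Trp53-/- libraries, with 5 called lower and 2 higher. With Pole4 wt that sum overlapped, from 13983 to 20109 and from 14010 to 20536, with none called lower by edgeR and 2 higher. The 20536 was that of library 1 of Pole4+/+ Trp53-/-, and without this library edgeR called 1 fibroblast marker lower and 2 higher. The sum of 10 epithelial markers went from between 10.6 and 16.9 CPM to between 22.3 and 42.6, with 2 of 3 tested called higher, and that of 8 neuronal markers from between 77.6 and 97.3 to between 126 and 148, with 4 of 6 tested called higher. The sum of 10 skeletal muscle markers went from between 57.7 and 74.6 CPM to between 31.5 and 39.6, with 1 called lower and 1 higher. With Pole4 wt, the muscle sum was between 45.2 and 74.0 CPM for Trp53 wt, 22.2 and 31.0 for Trp53 het, and 29.9 and 32.3 for Trp53 null, and the neuronal sum between 67.8 and 87.4, 97.3 and 125, and 102 and 140. The epithelial sum there was between 21.6 and 34.8 CPM for Trp53 wt, 12 and 17.6 for Trp53 het, and 7.28 and 32.7 for Trp53 null, and in Pole4-/- Trp53+/- libraries it was between 23.2 and 31.7. The part of these markers in the results was not tested.

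**Figure D2:**
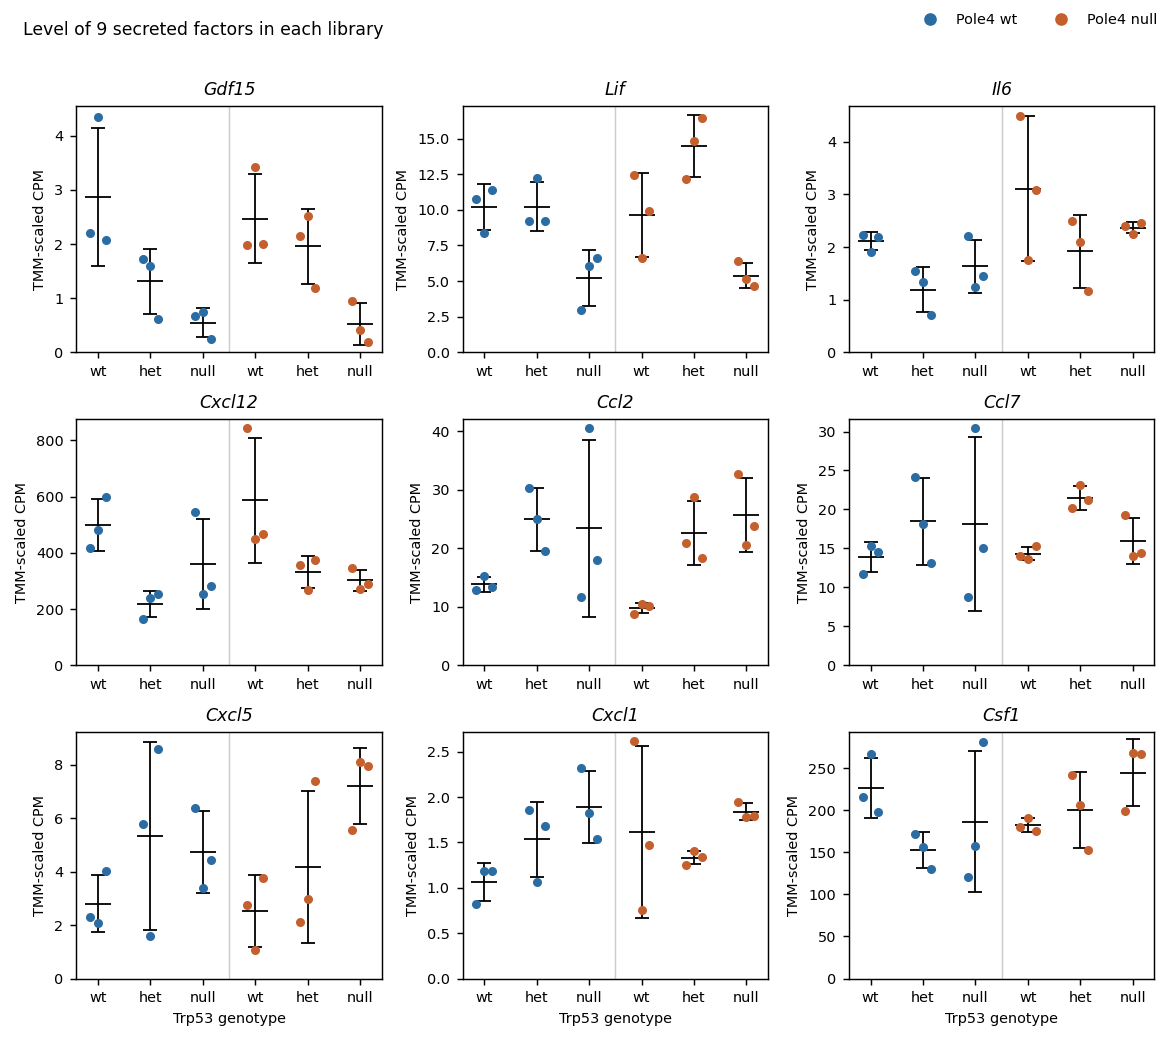
TMM-scaled CPM (y axis, linear from 0) of the 9 genes in each library, by Trp53 genotype on the x axis, with Pole4 wt in blue on the left and Pole4 null in orange on the right; points are libraries, bars the mean and SD (n = 3). Gdf15 and Lif have their lowest means in the Trp53 null groups of both backgrounds, and Ccl2 has its lowest means in the Trp53 wt groups.

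Gdf15 (ENSMUSG00000038508, GRCm38 chromosome 8, 70629393 to 70632456, minus strand) fell the most. In Pole4+/+ MEFs it was at 2.21, 4.34 and 2.08 CPM with Trp53 wt, 1.72, 1.60 and 0.621 with Trp53 het, and 0.669, 0.737 and 0.243 with Trp53 null. With Pole4 null, levels were 1.98, 3.42 and 2.01 with Trp53 wt, 2.15, 2.52 and 1.19 with Trp53 het, and 0.953, 0.419 and 0.199 with Trp53 null. In both backgrounds every Trp53-/- library lay below every Trp53+/+ library. The fitted fall was 4.89-fold in the Pole4 wt background (log2 -2.29, SE 0.53, adjusted p = 0.0208, edgeR) and 4.51-fold in Pole4-/- MEFs (log2 -2.17, SE 0.55, adjusted p = 0.0051, edgeR). In Pole4-/- MEFs each fit that left out a library kept the call, with log2 values from -2.94 to -1.82. Averaged over backgrounds, it fell by 2.23 on the log2 scale (SE 0.38, edgeR adjusted p = 0.000327), and an exact two-sided permutation test with labels exchanged within each background gave p = 0.005, the smallest its 400 arrangements allow. These levels rest on few counts, from 3 to 24 per Trp53-/- library and from 15 to 84 per Trp53+/+ library. Without library 3 of Pole4+/+ Trp53-/-, which held 3 counts, the call in Pole4+/+ was lost (log2 -2.03, edgeR adjusted p = 0.058), as it was without library 2 of Pole4+/+ Trp53+/+, the highest (log2 -1.88, adjusted p = 0.0913), and with only those groups fitted (log2 -2.31, adjusted p = 0.145), whereas without library 1 of Pole4+/+ Trp53-/- it held (log2 -2.44, adjusted p = 0.0143).

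Lif (ENSMUSG00000034394, chromosome 11, 4257557 to 4272514, plus strand) fell with both copies of Trp53 lost and was not called with 1 lost. In Pole4+/+ MEFs it was at 10.8, 8.38 and 11.4 CPM with Trp53 wt, 9.22, 12.2 and 9.22 with Trp53 het, and 2.98, 6.09 and 6.63 with Trp53 null. Pole4-/- cells had 12.5, 6.59 and 9.90 CPM with Trp53 wt, 12.2, 14.8 and 16.4 with Trp53 het, and 6.40, 5.13 and 4.64 with Trp53 null. The Trp53-/- libraries were all under the Trp53+/+ libraries in both backgrounds, by a narrow margin in Pole4-/- cells, and the Trp53+/- libraries reached as high as or higher than the Trp53+/+ ones. The fall was called in Pole4-/- (log2 -0.85, SE 0.28, edgeR adjusted p = 0.0217) and on average (log2 -0.92, SE 0.19, adjusted p = 0.0017; exact permutation p = 0.005, the smallest possible), while in Pole4+/+ it missed the threshold (log2 -0.99, SE 0.27, adjusted p = 0.0507). The call in Pole4-/- was lost without library 2 or 3 of Pole4-/- Trp53-/- (log2 -0.81 and -0.75) or library 1 of Pole4-/- Trp53+/+ (log2 -0.58, adjusted p = 0.151). The averaged call held in each of the 12 fits that left out a library. In Pole4+/+ the value without library 1 of Trp53-/- was -0.72 (adjusted p = 0.0503), and without library 3 it was -1.20 and called (adjusted p = 0.0361). The fall there was also called by DESeq2 (adjusted p = 0.0111), by voom (adjusted p = 0.0286) and by edgeR with sex as a covariate (adjusted p = 0.043).

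Il6 (ENSMUSG00000025746, chromosome 5, 30013114 to 30019981, plus strand), the founding member of the gp130 cytokines, did not pass the test with Trp53 loss. Its levels were 2.24, 1.91 and 2.20 CPM with both genes wt, 1.54, 1.33 and 0.710 with Trp53 het, and 2.20, 1.24 and 1.46 with Trp53 null in the Pole4+/+ background. The Pole4-/- libraries were at 4.49, 1.75 and 3.08 CPM with Trp53 wt, 2.49, 2.10 and 1.16 with Trp53 het, and 2.40, 2.25 and 2.45 with Trp53 null. Groups overlapped in both Trp53-/- comparisons, with log2 fold changes of -0.36 (SE 0.36, edgeR adjusted p = 0.669) in Pole4+/+ and -0.41 (SE 0.36, adjusted p = 0.385) in Pole4-/- cells. Without library 1 of Pole4-/- Trp53+/+, the latter became 0.01, and without library 1 of Pole4+/+ Trp53-/- the former was -0.69 (adjusted p = 0.266).

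Csf1 (ENSMUSG00000014599, chromosome 3, 107741048 to 107760469, minus strand) varied least among the 9 genes. In Pole4+/+ MEFs it was at 216, 266 and 198 CPM with Trp53 wt, 172, 156 and 130 with Trp53 het, and 121, 158 and 281 with Trp53 null. With Pole4 null, levels were 180, 191 and 175 CPM with Trp53 wt, 242, 206 and 152 with Trp53 het, and 199, 268 and 267 with Trp53 null. With Pole4 wt, the Trp53+/- libraries lay below all Trp53+/+ libraries, and the Trp53-/- libraries overlapped them. The Trp53-/- libraries lay above the Trp53+/+ ones in Pole4-/- cells, where the log2 fold change of 0.42 (SE 0.25, edgeR adjusted p = 0.183) was not called in the model of all libraries and was called with only those groups fitted (adjusted p = 0.0159). With Pole4 wt it was -0.28 (adjusted p = 0.606), and it ran from -0.72 to -0.08 in fits that left out a library (edgeR adjusted p no lower than 0.0522). The -0.08 was without library 1 of Trp53-/-. The difference of the Trp53 effect between backgrounds was 0.71 (SE 0.35, 95% interval -0.05 to 1.47), with an edgeR adjusted p of 0.194; without library 3 of Pole4+/+ Trp53-/-, the highest of that group, it was 1.13 (adjusted p = 0.0157).

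Cxcl12 (ENSMUSG00000061353, chromosome 6, 117168535 to 117181367, plus strand), the ligand of CXCR4 and the scavenger receptor ACKR3, fell with Trp53 loss. Its libraries were at 418, 480 and 599 CPM with both genes wt, 165, 239 and 253 with Trp53 het, and 544, 254 and 284 with Trp53 null in the Pole4+/+ background. Pole4-/- cells had 843, 450 and 466 CPM with Trp53 wt, 358, 268 and 374 with Trp53 het, and 346, 273 and 290 with Trp53 null. Het and null libraries lay below all Trp53+/+ libraries in Pole4-/- cells, whereas in Pole4+/+ cells the het libraries did and library 1 of Trp53-/- reached into the Trp53+/+ range. The fall was 1.94-fold in Pole4-/- (log2 -0.96, SE 0.29, edgeR adjusted p = 0.016) and 1.64-fold on average (log2 -0.71, SE 0.21, adjusted p = 0.013; exact permutation p = 0.015). In Pole4+/+ it was not called (log2 -0.47, SE 0.29, adjusted p = 0.424), but without library 1 of Trp53-/- it was (log2 -0.92, adjusted p = 0.0356). Without library 2 or 3 of Trp53-/- the log2 value there was -0.27 and -0.33, not called. In Pole4-/- the call was lost without library 1 of Trp53+/+, the highest (log2 -0.58, adjusted p = 0.128), or library 2 or 3 of Trp53-/- (log2 -0.88 and -0.92). It was also lost with library totals or no filter (log2 -1.05 and -0.91, adjusted p up to 0.0765).

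Ccl2 (ENSMUSG00000035385, chromosome 11, 82035571 to 82037453, plus strand), a major monocyte chemokine, rose. It was at 12.9, 15.4 and 13.5 CPM with both genes wt, 30.3, 25.1 and 19.5 with Trp53 het, and 11.8, 40.5 and 18.1 with Trp53 null in the Pole4+/+ background. The Pole4-/- libraries were at 8.76, 10.4 and 10.2 CPM with Trp53 wt, 20.9, 28.8 and 18.4 with Trp53 het, and 32.8, 20.6 and 23.9 with Trp53 null. All het libraries of both backgrounds, and all Pole4-/- Trp53-/- libraries, lay above the Trp53+/+ libraries of their background, while the Pole4+/+ Trp53-/- libraries spread on both sides. The rise was 2.65-fold in Pole4-/- (log2 1.40, SE 0.35, edgeR adjusted p = 0.00538) and 2.12-fold on average (log2 1.08, SE 0.24, adjusted p = 0.00299; exact permutation p = 0.02), and both calls held in every fit that left out a library. With Pole4 wt it reached 0.76 on the log2 scale (SE 0.34, adjusted p = 0.236); without library 1 of Trp53-/- it was 1.06 (adjusted p = 0.0225), and without library 2, the highest, 0.08 (adjusted p = 0.896). Macrophages also make this chemokine. The sum of 14 macrophage markers was between 11.2 and 34.1 CPM in Pole4-/- Trp53+/+ and between 8.38 and 45.5 in Pole4-/- Trp53-/- libraries, and edgeR called none of the 13 tested. Their median log2 fold change in Pole4-/- cells was 0.83 with Trp53 null and 0.87 with Trp53 het, the direction of Ccl2, and in Pole4+/+ cells -0.79 and -0.69, the opposite direction. Their part in the result was not tested.

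Ccl7 (ENSMUSG00000035373, chromosome 11, 82045712 to 82047525, plus strand) lies next to Ccl2 and encodes a monocyte chemokine of the same family, but edgeR called it in no comparison. Its libraries were at 11.7, 15.4 and 14.5 CPM with both genes wt, 24.2, 18.1 and 13.1 with Trp53 het, and 8.82, 30.5 and 15.1 with Trp53 null in the Pole4+/+ background. With Pole4 null, levels were 14.04, 13.7 and 15.3 CPM with Trp53 wt, 20.1, 23.1 and 21.2 with Trp53 het, and 19.3, 14.1 and 14.4 with Trp53 null. Only the Pole4-/- Trp53+/- libraries stood clear of their Trp53+/+ libraries. The log2 fold change with Trp53 null was 0.16 (SE 0.33, edgeR adjusted p = 0.738) in Pole4-/- and 0.39 (SE 0.32, adjusted p = 0.587) in Pole4+/+ cells, and without library 2 of Pole4+/+ Trp53-/- the latter was -0.24. Limma's voom with quality weights called a rise in Pole4+/+ (log2 0.95, adjusted p = 0.0204) and on average (log2 0.58, adjusted p = 0.017).

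The ratio of Ccl2 to Ccl7 counts in each library separated these neighbours further. With Pole4 wt it was 1.01 ± 0.086 (SD, n = 3) for Trp53 wt, 1.37 ± 0.118 for Trp53 het and 1.29 ± 0.0782 for Trp53 null. With Pole4 null it was 0.684 ± 0.0708 for Trp53 wt, 1.05 ± 0.191 for Trp53 het and 1.60 ± 0.126 for Trp53 null. The highest Pole4-/- Trp53+/+ library, at 0.762, lay below the lowest of every other genotype, and the lowest Pole4-/- Trp53-/- library, at 1.46, lay above every other library but 1, a Pole4+/+ Trp53+/- library at 1.49. Even so, the log2 CPM of both genes moved together between libraries of 1 genotype: with genotype means removed, Pearson's r was 0.94 over the 18 libraries, against 0.74 with them. These values are a description and were not tested. The genes share libraries and depth, and none of the 50-base stretches of their transcripts occurs in another gene's transcripts.

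**Figure D3:**
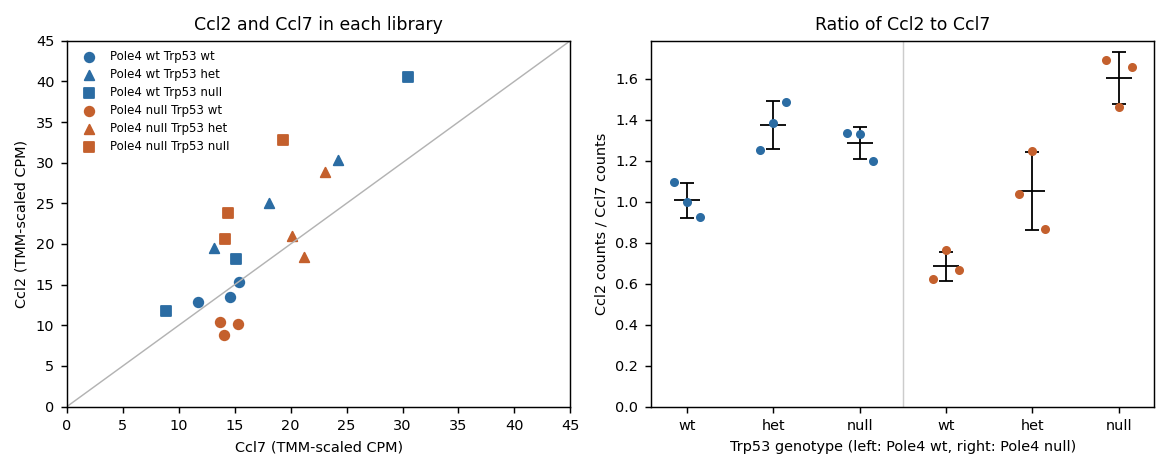
Left, Ccl2 against Ccl7 in TMM-scaled CPM, 1 point per library, with the line of equal level; right, the ratio of Ccl2 to Ccl7 counts in each library with mean and SD (n = 3). The Pole4-/- Trp53+/+ libraries lie below the line, at ratios from 0.624 to 0.762, and the Pole4-/- Trp53-/- libraries above it, from 1.46 to 1.69.

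The neutrophil chemokine Cxcl5 (ENSMUSG00000029371, chromosome 5, 90759360 to 90761624, plus strand) rose in Pole4-/- cells. It was at 2.30, 2.07 and 4.03 CPM with both genes wt, 5.78, 1.60 and 8.60 with Trp53 het, and 6.39, 3.38 and 4.45 with Trp53 null in the Pole4+/+ background. Pole4-/- cells had 2.77, 1.09 and 3.75 CPM with Trp53 wt, 2.10, 2.99 and 7.41 with Trp53 het, and 5.58, 8.11 and 7.96 with Trp53 null. Null libraries lay above wt libraries in Pole4-/- and overlapped them in Pole4+/+ cells, and the het libraries were widely spread. The rise was 2.89-fold in Pole4-/- (log2 1.53, SE 0.58, edgeR adjusted p = 0.045) and 2.23-fold on average (log2 1.16, SE 0.40, adjusted p = 0.0342; exact permutation p = 0.01). Both calls were weak: of the fits that left out a library, 1 of 6 kept the first and 4 of 12 the second, with log2 fold changes from 1.18 to 1.84 and from 0.98 to 1.31. Without library 1 of Pole4+/+ Trp53-/-, the averaged value was 0.98 (adjusted p = 0.0822). A short stretch of Cxcl5 (0.693% of its 50-base stretches) is shared with other transcripts.

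Cxcl1 (ENSMUSG00000029380, chromosome 5, 90891241 to 90893115, plus strand), the other neutrophil chemokine, was not called by edgeR with all libraries. It was at 0.816, 1.19 and 1.19 CPM with both genes wt, 1.86, 1.06 and 1.69 with Trp53 het, and 2.32, 1.82 and 1.54 with Trp53 null in the Pole4+/+ background. The Pole4-/- libraries were at 2.62, 0.751 and 1.47 CPM with Trp53 wt, 1.26, 1.40 and 1.34 with Trp53 het, and 1.95, 1.78 and 1.79 with Trp53 null. The null libraries lay above the wt libraries in Pole4+/+ cells, and within the wide range of the wt libraries in Pole4-/- cells. Trp53 null cells differed by a log2 value of 0.86 (SE 0.36, edgeR adjusted p = 0.191) in Pole4+/+, 0.14 (SE 0.36, adjusted p = 0.798) in Pole4-/- and 0.50 (SE 0.25, adjusted p = 0.136; exact permutation p = 0.065) on average. The averaged rise was called by voom (log2 0.62, adjusted p = 0.0413), and by edgeR without library 1 of Pole4-/- Trp53+/+, the highest (log2 0.81, adjusted p = 0.0158).

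**Figure D4:**
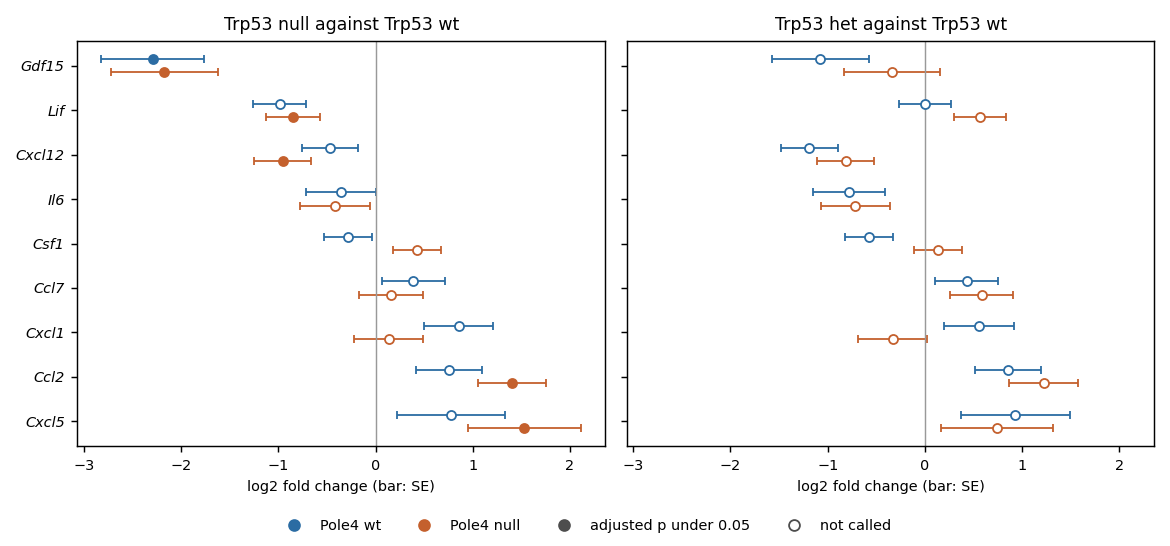
Log2 fold change (x axis) of each gene for Trp53 null (left) and Trp53 het (right) against Trp53 wt, in Pole4 wt (blue) and Pole4 null (orange) MEFs; bars are 1 SE and filled points were called at an adjusted p under 0.05. Gdf15 is called in both backgrounds with Trp53 null, and edgeR calls no gene with Trp53 het.

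Whether 1 lost copy of Trp53 was enough was asked in the heterozygous cells. None of the 9 genes was called by edgeR, against 5.12% of all genes (2.16% lower and 2.96% higher) in Pole4-/- and 0.904% in Pole4+/+ cells. At an unadjusted p under 0.05 there were 3 (Ccl2, Cxcl12 and Lif) in Pole4-/- and 4 (Ccl2, Csf1, Cxcl12 and Gdf15) in Pole4+/+ cells. The share of all genes under that unadjusted p was not counted. DESeq2 called 2 and 1 of the 9, against 1705 and 402 over all genes. Limma's voom with quality weights called 1 and 2, against 3862 and 1117. The largest changes were Ccl2 in Pole4-/- (log2 1.22, SE 0.35, edgeR adjusted p = 0.0557) and Cxcl12 in Pole4+/+ (log2 -1.19, SE 0.29, adjusted p = 0.0736). Cxcl12 in Pole4-/- was at -0.81 (SE 0.29, adjusted p = 0.101) and Ccl2 in Pole4+/+ at 0.85 (SE 0.34, adjusted p = 0.351). Lif was at 0.57 on the log2 scale (SE 0.27, adjusted p = 0.19) in Pole4-/- and 0.00 (SE 0.27, adjusted p = 1.00) in Pole4+/+ cells, and Gdf15 at -0.34 (SE 0.49, adjusted p = 0.697) and -1.08 (SE 0.50, adjusted p = 0.472). The het libraries did not overlap the wt libraries for 3 genes in Pole4-/- (40.3% of all genes) and for 5 in Pole4+/+ cells (20.3% of all genes). In Pole4+/+ all het libraries were male and all wt libraries female, so sex and Trp53 genotype cannot be told apart there, and the het and null comparisons of each background share their wt libraries.

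Loss of Pole4 was compared at each Trp53 dose, and edgeR called none of the 9 genes in Trp53+/+ (3.98% of all genes, 2.7% lower and 1.29% higher), Trp53+/- (0.00637%) or Trp53-/- cells (0.00637%), or averaged over Trp53 (0.439%). DESeq2 and voom called none of these genes in these comparisons either. Over all genes, DESeq2 called 1618 in Trp53+/+, 43 in Trp53+/-, 29 in Trp53-/- cells and 384 averaged, and voom 5229, 246, 1 and 2133. None of the 9 genes was under an unadjusted p of 0.05 in the single comparisons. Averaged over Trp53, 1 gene was: Il6 was 1.49-fold higher in Pole4-/- cells (log2 0.58, SE 0.21, unadjusted p = 0.0143, edgeR adjusted p = 0.254; exact permutation p = 0.0155 over 8000 arrangements). Scaled by library totals alone the log2 value was 0.35 (adjusted p = 0.296). Its log2 fold change was 0.58 in Trp53+/+, 0.64 in Trp53+/- and 0.52 in Trp53-/- cells, and its libraries did not overlap in Trp53-/- cells, as for 9.15% of all genes. Ribosomal RNA also separated these groups, at 24.8%, 30.0% and 24.7% of counts in Pole4-/- Trp53-/- against 1.82%, 13.1% and 2.32% in Pole4+/+ Trp53-/- libraries, and its part was not tested. For the other 8 genes the averaged log2 fold change lay between -0.18 (Ccl2) and 0.20 (Cxcl12), with 95% intervals from -0.60 to 0.25 and from -0.17 to 0.56. The widest interval of the 8 was that of Cxcl5, from -0.68 to 0.74 around 0.03. In Trp53+/+ cells, the Pole4-/- libraries of Ccl2 and Csf1 lay below all Pole4+/+ libraries (log2 -0.51 and -0.32, edgeR adjusted p = 0.369 and 0.428), where 41.1% of all genes did not overlap. The Pole4-/- libraries of Cxcl12 lay above the Pole4+/+ libraries in Trp53+/- cells (log2 0.61, edgeR adjusted p = 0.91), where 13.1% of all genes did not overlap.

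With all libraries, the Trp53 null effect was not shown to differ between Pole4 backgrounds for any of the 9 genes. None was called by edgeR (0.331% of all genes), or by DESeq2 and voom, which called 1775 and 1234 genes over all. None was at an unadjusted p under 0.05, and the share of all genes under it was not counted. The difference, Pole4-/- minus Pole4+/+, was 0.12 for Gdf15 (95% interval -1.54 to 1.77), 0.14 for Lif (-0.70 to 0.98), -0.49 for Cxcl12 (-1.38 to 0.41), 0.65 for Ccl2 (-0.41 to 1.70) and 0.75 for Cxcl5 (SE 0.80). Leaving out library 2 of Pole4+/+ Trp53-/-, the highest for Ccl2, gave a difference of 1.32 for Ccl2 (SE 0.34, edgeR adjusted p = 0.0303), with 1973 calls over all genes against 52, and leaving out library 3 gave the call of Csf1 described above, with 3242. Leaving out library 1 of that group, none was called by edgeR, and the difference was -0.05 for Cxcl12, -0.16 for Lif and 0.32 for Ccl2. The intervals are wide, so calls in 1 background and not in the other are no sign of a difference. The test for any difference among the 6 genotypes called 4 genes: Lif (edgeR adjusted p = 0.0036), Gdf15 (0.00846), Cxcl12 (0.0151) and Ccl2 (0.0313), against 28.5% of all genes.

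Of 15 receptor genes for these ligands, 8 passed the filter, and averaged over Pole4, 2 fell and none rose with Trp53 loss, against 17.1% of all genes lower and 20.3% higher. Il6st, the shared gp130 chain, fell by 0.59 on the log2 scale (SE 0.21, edgeR adjusted p = 0.035), and in the Pole4-/- background went from 701 ± 176 CPM (SD, n = 3) with Trp53 wt to 364 ± 59.7 with Trp53 null. With Pole4 wt it was at 510 ± 126 and 431 ± 216 CPM (log2 -0.24, SE 0.29, adjusted p = 0.735). Ret, the signalling chain of the GDF15 receptor, fell by 0.94 (SE 0.29, adjusted p = 0.0173). Ackr3, the scavenger of CXCL12, was called in Pole4-/- cells (log2 -1.52, SE 0.40, adjusted p = 0.00684), from 53.1 ± 4.71 to 18.5 ± 3.00 CPM, and not on average (log2 -0.68, adjusted p = 0.0649). With Pole4 wt its log2 value was 0.16 (SE 0.39, edgeR adjusted p = 0.883). Lifr (log2 0.19), Il6ra (-0.37), Csf1r (0.52), Cxcr4 (0.56) and Ccr1 (0.63) were not called on average, and the last 2 stayed below 1 CPM on average in every genotype. Without library 1 of Pole4+/+ Trp53-/-, 3 receptors fell on average (48.2% of all genes called). In Pole4+/+ cells none of the 8 was called by edgeR (4.6% of all genes), or 1 lower without that library.

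Downstream of IL-6 and LIF, 20 of 22 JAK-STAT3 genes were tested; 5 fell and 4 rose on average over Pole4, against 37.4% of all genes called, or 8 and 5 without library 1 of Pole4+/+ Trp53-/- (48.2%). In Pole4-/- cells 9 fell and 4 rose (42.6% of all genes called), and in Pole4+/+ cells edgeR called none (4.6%), or 2 lower and 1 higher without library 1 of Trp53-/- (16.9%). The feedback inhibitor Cish fell by 0.79 on the log2 scale (SE 0.11, edgeR adjusted p = 5.45e-05), the kinase gene Tyk2 by 0.49 (adjusted p = 0.00399) and the STAT3 inhibitor gene Pias3 by 0.38 (adjusted p = 0.00241), while Myc rose by 0.89 (adjusted p = 0.00133). The median over the 20 genes was -0.05.

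Of 25 genes of NF-kB and C/EBP factors and their feedback targets, 6 fell and 8 rose on average (17.1% and 20.3% of all genes), with a median log2 fold change of 0.07, and 1 was called in Pole4+/+ cells (4.6% of all genes), or 3 lower and 1 higher without library 1 of Trp53-/- (16.9%). Nfkb1, which encodes the p50 subunit, rose by 0.43 (SE 0.05, edgeR adjusted p = 2.52e-05) and the adhesion molecule gene Vcam1 by 0.72 (SE 0.13, adjusted p = 0.000423). Ikbkg, the scaffold of the IKK complex, fell by 0.90 (SE 0.12, adjusted p = 3.96e-05) and the adhesion molecule gene Icam1 by 1.71 (SE 0.34, adjusted p = 0.000994), with values of -2.71 in Pole4-/- (adjusted p = 0.000452) and -0.70 in Pole4+/+ cells (adjusted p = 0.474). Without library 1 of Pole4+/+ Trp53-/-, 7 fell and 9 rose on average (48.2% of all genes called).

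Among 49 other cytokine and chemokine genes, 27 passed the filter, and on average edgeR called 6 lower and 3 higher (37.4% of all genes called), or 10 and 4 without library 1 of Pole4+/+ Trp53-/- (48.2%). These counts are a description and nothing is read from them, since Cxcl10 and Ccl5 among the higher genes, and Cxcl15 among the 10 lower ones, passed the filter only through groups where they were high. The interferon-inducible T cell chemokines Cxcl10 and Ccl5 averaged 1.27 and 0.601 CPM in Pole4+/+ Trp53-/- and 1.53 and 0.664 in Pole4-/- Trp53-/- libraries, against at most 0.235 and 0.0773 where Trp53 was wt. In no Trp53+/+ library was either above the limit of the filter on low counts, 0.439 CPM, so their difference is given as a description. Kitl, the stem cell factor, rose by 1.01 (SE 0.20, edgeR adjusted p = 0.00088). Cxcl14 was called in Pole4-/- cells (log2 -1.37, adjusted p = 0.00182) and not on average (log2 -0.34, adjusted p = 0.208), with a value of 0.68 in Pole4+/+ cells (adjusted p = 0.21). The chemokine clusters around the members were mostly at low levels: on chromosome 11, Ccl11, Ccl12, Ccl8 and Ccl1 beside Ccl2 and Ccl7 did not pass the filter and reached at most 0.653 CPM in any library. On chromosome 5, Pf4, Cxcl3 and Cxcl2 did not pass it either, reaching at most 0.827 CPM. Ppbp and Cxcl15 between Cxcl5 and Cxcl1 passed. Ppbp was called in Pole4-/- cells, where it rose by 2.09 (SE 0.79, edgeR adjusted p = 0.043), from 0.627 ± 0.348 to 2.91 ± 2.69 CPM, and not on average (log2 1.19, adjusted p = 0.0992) or in Pole4+/+ cells (log2 0.29, adjusted p = 0.89). Cxcl15 averaged 0.883 CPM in Pole4-/- Trp53+/+ and at most 0.139 in the other genotypes, so it passed the filter through the group where it was high and is given as a description.

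Gdf15 is also induced by the integrated stress response, so 18 of its genes were set beside it: 6 fell and 2 rose on average over Pole4 (37.4% of all genes called). Sesn2, a target of both ATF4 and TRP53, fell by 1.32 (SE 0.15, edgeR adjusted p = 9.48e-06) and Nupr1, a stress-induced chromatin protein gene, by 0.92 (SE 0.17, adjusted p = 0.000774), as did the kinase gene Eif2ak3, by 0.60 (adjusted p = 0.00661), while Psat1, of serine synthesis, rose by 0.51 (adjusted p = 0.00218). Of 8 senescence markers, 2 fell and 4 rose (17.1% and 20.3% of all genes), or 3 and 3 without library 1 of Pole4+/+ Trp53-/- (48.2% called). The 4 named here had the lowest adjusted p of the list, and the other markers that rose are not named. Cdkn1a fell by 5.15 (SE 0.18, adjusted p = 2.33e-11) and Glb1, the lysosomal galactosidase, by 0.67 (SE 0.10, adjusted p = 0.000123), whereas Lmnb1 and Hmgb2, nuclear proteins that decline in senescence, rose by 1.13 (SE 0.13, adjusted p = 1.23e-05) and 1.21 (SE 0.14, adjusted p = 1.23e-05). By background, edgeR called 10 of the 18 stress genes and 6 of the 8 senescence markers in Pole4-/- cells (42.6% of all genes), and 1 of each list in Pole4+/+ cells (4.6%), Sesn2 and Cdkn1a. The values in Pole4-/- and Pole4+/+ cells were 1.67 and 0.60 for Lmnb1, 1.81 and 0.60 for Hmgb2, -0.97 and -0.38 for Glb1, 0.88 and 0.14 for Psat1, and -0.97 and -0.22 for Eif2ak3. Without library 1 of Pole4+/+ Trp53-/-, 2 stress genes were called lower in Pole4+/+ cells, and 2 senescence markers lower and 2 higher (16.9% of all genes called).

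The genes whose log2 CPM followed each member most closely over the 18 libraries are given as a description, with Pearson's r. They were Hmox1, the heme oxygenase, for Gdf15 (0.95), Ass1, of arginine synthesis, for Lif (0.89), Sytl2 for Cxcl12 (0.88), Edc3 for Ccl2 (0.97) and Ttc39b for Csf1 (0.95). For Cxcl5 it was Cxadr (0.84), for Ccl7 Rab34 (0.79), for Il6 the antisense gene 6330562C20Rik (0.80) and for Cxcl1 Zcwpw1 (0.76). Among the members, Ccl2 ran opposite to Cxcl12 (r = -0.82, and -0.62 with genotype means removed) and Cxcl5 opposite to Gdf15 (-0.72 and -0.58). The points share libraries, depth and genotype.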

How the data were processed

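The processed values are RSEM expected counts per gene, deposited by the authors as 1 table of 51912 genes and 18 libraries. Per the labels and methods, polyA RNA was converted to cDNA and libraries with Ovation kits, sequenced in paired ends on an Illumina HiSeq, trimmed, aligned with STAR 2.5.2 to GRCm38 and counted with RSEM 1.3.0; the authors' own DESeq2 tests were not used. RSEM splits a read that fits several genes, and 6.14% of the values are not whole. No strand setting is stated, so reads of overlapping antisense genes cannot be told apart. Identifiers were matched to GENCODE's GRCm38 annotation (51633 matched).

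Counts were rounded, filtered with filterByExpr (15710 genes left) and fitted with edgeR 4.0.16 in R 4.3.3: libraries scaled by TMM, each genotype given its own mean in 1 model of the 18 libraries, robust quasi-likelihood F-tests, and Benjamini-Hochberg adjustment over all genes tested, with a call at 0.05. The SE is the log2 fold change divided by the square root of F. The 95% intervals use it with a t distribution of 12 residual degrees of freedom. Per-library log2 CPM used a prior count of 2. Exact two-sided permutation tests on log2 CPM of 3 against 3 libraries cannot go below 0.1 and are given for averaged comparisons only. The fit was tested on simulated data. The members, gene lists and tests were chosen with earlier results of these data known. The genes named besides the members are Trp53, Pole4 and Cdkn1a as a check of the labels, up to 4 called genes with the lowest adjusted p per list, the receptors that passed the filter, neighbouring chemokine genes, and the gene most alike to each member. Alternatives were DESeq2 1.42.0, library totals, no filter, a replicate block, sex as a covariate, limma 3.58.1 voom with quality weights, only the groups compared, and leaving out each library; list counts without library 1 of Pole4+/+ Trp53-/- were added after the data had been seen.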

Additional observations from a re-analysis of the deposited data

Results flagged for a closer look

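For Cxcl1, the mean difference with 1 lost copy of Trp53 had opposite signs in the backgrounds, without a call. The difference of mean log2 CPM between het and wt libraries was 0.48 in Pole4+/+ and -0.10 in Pole4-/- MEFs, a difference between backgrounds of -0.58. The difference was not tested, and in neither background was Cxcl1 called or free of overlap.

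Library 1 of Pole4+/+ Trp53-/-, which holds abundant Xist, had 4 Y-linked genes at 9.08 CPM in sum. The other female libraries had at most 0.337 CPM and the male libraries from 134 to 208 CPM. The cause was not tested.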

How the results depend on the processing

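With Trp53 null in Pole4-/- cells, 5 genes were called; library totals and no filter on low counts each left 3, sex as a covariate 4 (without Cxcl5), only the groups compared 6 (with Csf1), and leaving out a library 2 to 5. In Pole4+/+ cells 1 was called, and DESeq2 and sex as a covariate each gave 2, voom 4, only the groups compared 0, and leaving out a library 0 to 3. Averaged over Pole4, library totals and no filter each left 3 of 5, Cxcl5 and Cxcl12 being lost, and voom gave 7, with Cxcl1 and Ccl7 added. With Trp53 het in Pole4-/- cells, where none was called, DESeq2 and only the groups compared gave 2 and library totals and voom 1. With Trp53 het in Pole4+/+ cells DESeq2 and only the groups compared gave 1 and voom 2. With Pole4 null in Trp53+/+ cells only the groups compared gave 1, the interaction gave 0 to 1 without a library (Ccl2 or Csf1), and the test over 6 genotypes gave 2 with no filter and 7 with voom, against 4. The causes were not tested.

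The replicate numbers were not used as a pairing in the main fit. Of 45 same-numbered pairs, 22 correlated above 0.1 in their deviations (median 0.098 and highest 0.586, against a median of -0.060 for other numbers). Library 1 held the most counts in each genotype, and a batch shared by number was not tested. With the replicate block, 1 gene was called for Trp53 het in Pole4-/- cells (Ccl2), and the other counts of members did not change. Over all genes, the block took calls from 52 to 548 for the interaction and from 626 to 896 for Pole4 in Trp53+/+ cells.

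The log2 fold change of Lif with Trp53 het in Pole4+/+ cells, 0.00, turned to -0.041 with library totals and -0.10 with voom, and ran from -0.15 to 0.088 without a library. Without a library, Il6 ran from -0.69 to 0.014, Cxcl1 from -0.20 to 0.79 and Ccl7 from -0.0039 to 0.24 with Trp53 null in Pole4-/- cells, Ccl7 from -0.24 to 0.71 in Pole4+/+ cells, and on average Ccl7 from -0.038 to 0.42 and Csf1 from -0.15 to 0.16. The averaged calls of Gdf15, Lif and Ccl2 held under the 7 alternatives and in the 12 fits that each left out 1 library. Gdf15, Il6 and Cxcl1 are limited by depth, at no more than 120 counts in every library. Over all genes, calls for Trp53 null went from 6699 to 3722 in Pole4-/- and from 5872 to 3142 on average with library totals, and in Pole4+/+ from 723 to 1305 with DESeq2, 192 with library totals, 2946 with voom and 90 with only the groups compared. Library totals moved the median log2 fold change of all genes to 0.29 for Trp53 het in Pole4-/- cells and to -0.24 for Pole4 averaged over Trp53, from -0.0054 and -0.013, and the share of higher calls from 57.8% to 97% and from 42% to 0.899%. For Pole4 in Trp53+/+ cells the median went from 0.012 to -0.28 and that share from 32.3% to 2.54%. For Trp53 null on average the share went from 54.4% to 64.4%. Over the alternatives and the fits that each left out 1 library, calls over all genes ranged from 17 to 3862 for Trp53 het in Pole4-/- (805 as reported), from 17 to 1117 in Pole4+/+ (142), from 8 to 5229 for Pole4 in Trp53+/+ (626), from 0 to 246 in Trp53+/- (1), from 0 to 29 in Trp53-/- (1), from 9 to 2133 on average (69), from 0 to 3242 for the interaction (52), and from 2894 to 9061 over the 6 genotypes (4480).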
